A study of Homo sapiens with 4 samples.

Results

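A single probe set could be read under a mucin symbol in these data, the probe set 8135033 listed under Muc12 (current symbol MUC12) and also under LOC100130716. It was found by taking every entry of the authors' deposited up-and-down table whose symbol is MUC followed by a number. That made 1 of the 759 probe sets in the table. Symbols are paired with probe sets only there, so other mucins among the 33297 probe sets on the arrays could not be found. The table was selected on the contrast described here, so the difference of this probe set between the groups is given as a description without a test. Total RNA came from asynchronously growing cultures of HCT116, an established cell line from a human colorectal carcinoma. The shControl group (2 arrays) was labelled wild-type and received a control short hairpin RNA (shRNA), and the shPCAF group (2 arrays) received an shRNA against PCAF and was labelled a PCAF knock-down. PCAF, now named KAT2B, is a lysine acetyltransferase that acts as a transcriptional coactivator, and the series title ties the experiment to target genes of the cyclin-dependent kinase inhibitor p27. The labels name neither the shRNA sequences nor the number of hairpins, and they do not say whether the replicates were separate cultures, so the spread between arrays may be technical.

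Mucins are large glycoproteins whose serine- and threonine-rich repeats carry dense O-linked glycans. The secreted mucins of goblet cells form the mucus gel of the gut, whereas the transmembrane mucins stay on the apical surface of epithelial cells and form the glycocalyx. MUC12 is a transmembrane mucin of the colon epithelium. Its gene lies on chromosome 7 between those of MUC3A and MUC17, 2 other transmembrane mucins of the intestine, in the order of the RefSeq annotation (GRCh38.p14). The same annotation places an antisense transcript, MUC12-AS1, inside the MUC12 gene. LOC100130716 matched no current RefSeq entry. No source used here gives the positions of the probes, so the signal cannot be divided between the 2 listed symbols or between MUC12 and transcripts that overlap it.

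The sequence just before the annotated start of MUC12 is shown because MUC12 is the one mucin symbol that the table pairs with a probe set. It covers the 250 bases before the start, at chr7:100969315-100969564 on the plus strand of GRCh38.p14 (RefSeq), with the TATA box match in capitals.
MUC12: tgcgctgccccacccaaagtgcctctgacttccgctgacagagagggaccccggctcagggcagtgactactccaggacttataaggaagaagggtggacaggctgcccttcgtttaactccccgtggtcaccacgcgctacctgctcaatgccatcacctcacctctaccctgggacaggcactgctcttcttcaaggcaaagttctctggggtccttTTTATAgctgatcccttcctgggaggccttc
Of these bases 57.6% were G or C, beside a median of 58.0% over the same stretch of all 35116 promoters in the RefSeq table. The TATA box letters TATAAA were found once, on the opposite strand, with the leftmost base 31 bases before the start. They were present on either strand in 10.7% of all promoters. The other 9 motifs searched on both strands had no match in this stretch. These were the CCAAT box (CCAAT, in 32.0% of all promoters), the GC box (GGGCGG, 42.6%), the AP-1 motif (TGANTCA, 6.57%) and the cAMP response element (TGACGTCA, 1.65%). They also included a C/EBP-ATF element (TGATGNAA, 3.14%), E2F (TTTNGCGC, 1.51%), ETS (CCGGAAG, 8.52%), CDX (TTTATG, 9.64%) and the E-box (CACGTG, 6.34%). A match or its absence describes letters in this stretch and says nothing of binding, which was not measured.

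The signal of the MUC12 probe set was much higher in the shPCAF cells than in the control cells. On the log2 scale it read 7.80 and 7.93 in shControl replicates 1 and 2, and 10.45 and 10.39 in shPCAF replicates 1 and 2. Both shPCAF arrays lay far above both shControl arrays, and the groups did not overlap. The group means were 7.87 ± 0.09 (SD, n = 2) and 10.42 ± 0.04 (SD, n = 2). The log2 difference of shPCAF minus shControl was 2.55, which is a 5.87-fold higher signal. Over the 4 ways of setting a shPCAF array against a shControl array, the log2 difference ran from 2.46 to 2.65. The 2 arrays of a group differed by 0.13 in shControl and 0.06 in shPCAF, so the distance between the groups was many times the distance within them. These gaps were ordinary for the arrays, whose median gaps over all probe sets were 0.09 and 0.10. In RNA from a whole culture, a higher level per cell and a larger share of cells with the transcript cannot be told apart.

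**Figure D1:**
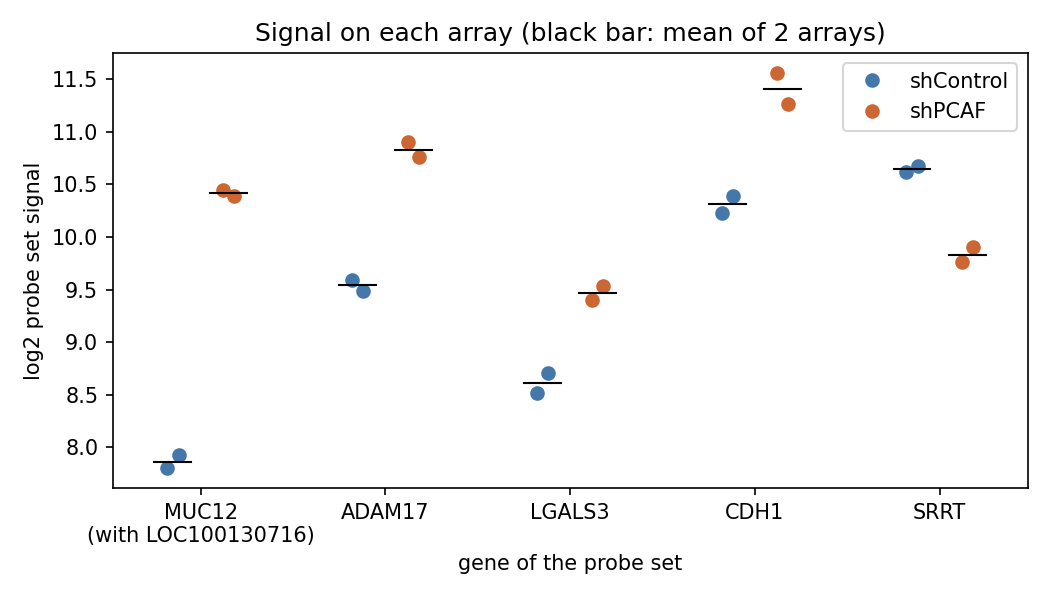
Log2 probe set signal (vertical axis) on each of the 4 arrays for the MUC12 probe set, for ADAM17, LGALS3 and CDH1, and for SRRT, which lies near MUC12 on chromosome 7. Points are arrays and black bars are means of 2 arrays; the MUC12 probe set reads 7.80 and 7.93 in shControl and 10.45 and 10.39 in shPCAF. Heights of different probe sets are not comparable, since probes differ in brightness.

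Within each array, the MUC12 probe set moved from the middle of the brightness range to its upper part. It was at the 59.3rd and 60.4th percentile of all signals in the shControl arrays, between the arrays' medians (7.08 and 7.10) and their upper quartiles (9.20 and 9.23). In the shPCAF arrays it was at the 87.1st and 86.3rd percentile, above upper quartiles of 9.25 and 9.29. These percentiles describe brightness and not transcript abundance. The shControl signal was above the median of its array, but whether it was above background was not measured, because scanner files and detection calls were not used here.

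Among all probe sets the rise of MUC12 was one of the largest. Ranked by the log2 difference it was number 8 of 33297, and the 7 above it were also in the authors' deposited table. The median difference over all probe sets was -0.05, the 5th percentile -0.49 and the 95th percentile 0.54. There were 34 probe sets with a log2 difference of at least 2. No probe set was lower by as much as MUC12 was higher, since the lowest difference was -2.48. The smallest absolute log2 difference of a probe set in the table was 0.70, so MUC12 was far inside the table's limit. Both shPCAF arrays exceeded both shControl arrays in 23.1% of all probe sets, and 7.05% of all probe sets were called higher by limma at an adjusted p below 0.05. The MUC12 probe set was among both, and since it was taken from the table, nothing is read from that.

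**Figure D2:**
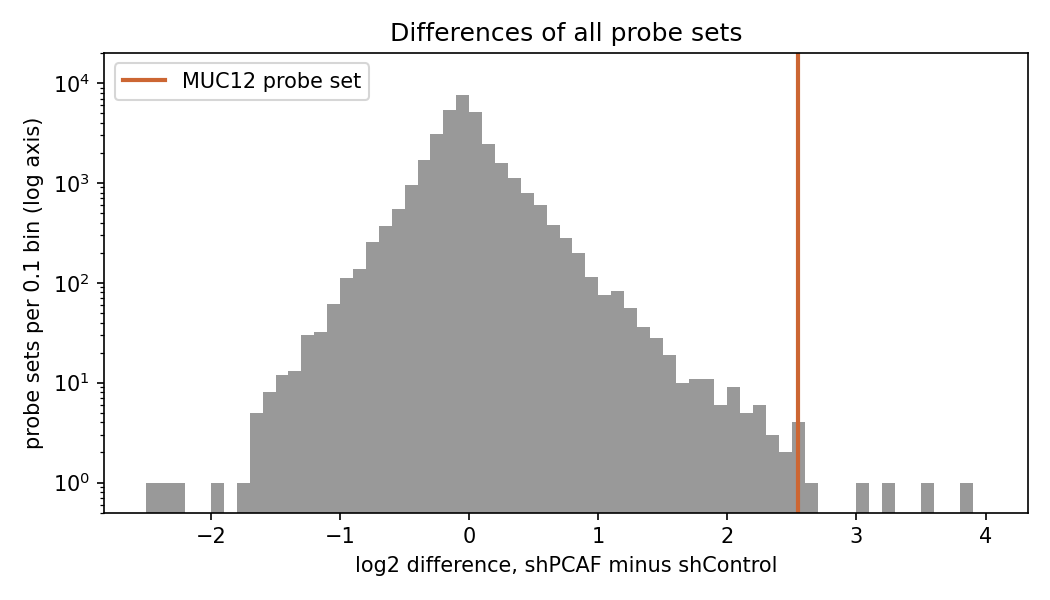
Number of probe sets (log axis) by log2 difference of shPCAF minus shControl, in bins of 0.1 over all 33297 probe sets. The vertical line marks the MUC12 probe set at 2.55, in the sparse upper tail beyond the 95th percentile of 0.54.

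The genes next to MUC12 in this order were chosen after their values were seen. Just above it were NT5E, the ectonucleotidase CD73, with a log2 difference of 2.60, and SLFN5, a Schlafen family gene, with 2.55. Just below it were DDIT4, an inhibitor of mTORC1 signalling, with 2.50, and ABCC3, an organic anion efflux transporter, with 2.47. The differences between single arrays ran from 2.41 to 2.79 for NT5E, from 2.38 to 2.73 for SLFN5, from 2.17 to 2.83 for DDIT4 and from 2.24 to 2.71 for ABCC3. All 4 ranges overlapped that of MUC12 and were wider than it, so the order among these 5 probe sets lay within the spread of the arrays.

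In the authors' deposited table, MUC12 and LOC100130716 stood on separate lines among the rises with an identical entry of 5.46 under fold change. Among the rises of the authors' deposited table, larger entries stood on 6 lines. By the log2 difference MUC12 was number 8 among the table's probe sets, just below SLFN5, whose log2 difference was also 2.55. The 6 lines are those with a strictly larger entry, so an equal entry would not be counted. Whether the 2 orders differ was not tested. The entry of 5.46 was not the 5.87-fold that the arrays' log2 difference of 2.55 gives. It was 2.14 times that log2 difference and is treated here as a score. The p-values of the 2 lines in the authors' deposited table differed, 0.004627 for Muc12 and 0.038973 for LOC100130716, although both lines describe the same probe set and so the same 4 signals. An unequal-variance test on those signals came within 1e-05 of the p on the Muc12 line and not of the p on the LOC100130716 line. The labels do not say how the second p arose.

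MUC12 was the 1 member of a list of 12 transmembrane mucins with a named probe set. None of 6 secreted mucins, such as MUC2 and MUC5AC, and none of 9 mucin-like glycoproteins had one. The same held for the 32 genes of O-glycan synthesis, which start and extend the sugar chains of mucins, and for the 19 genes of goblet cells and mucus, such as TFF3 and SPDEF. Those genes were not analysed here, because symbols are paired with probe sets only in the table, and no level or change of them can be read from it. It is therefore not known from these values whether other mucins moved with MUC12.

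Of 16 genes whose products bind, cleave or signal with membrane mucins, 2 had named probe sets, both with a higher signal in shPCAF cells and both called by limma. Over all probe sets, 7.05% were called higher by limma and 23.1% had both shPCAF arrays above both shControl arrays. ADAM17, a membrane protease that sheds the ectodomain of MUC1 and many other surface proteins, read 9.59 and 9.49 in shControl replicates 1 and 2, against 10.90 and 10.76 in shPCAF replicates 1 and 2. Its log2 difference was 1.29, a 2.44-fold higher signal, with group SDs of 0.07 and 0.10 (n = 2 each). LGALS3 encodes galectin-3, a lectin that binds galactose-bearing glycans of mucins. It read 8.52 and 8.71 in shControl and 9.40 and 9.53 in shPCAF, a log2 difference of 0.85 (1.80-fold), with group SDs of 0.13 and 0.09 (n = 2 each). For both genes every shPCAF array was above every shControl array. ADAM17 and LGALS3 came from the table selected on this contrast, so nothing is read from these counts, and the differences too are descriptions.

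**Figure D3:**
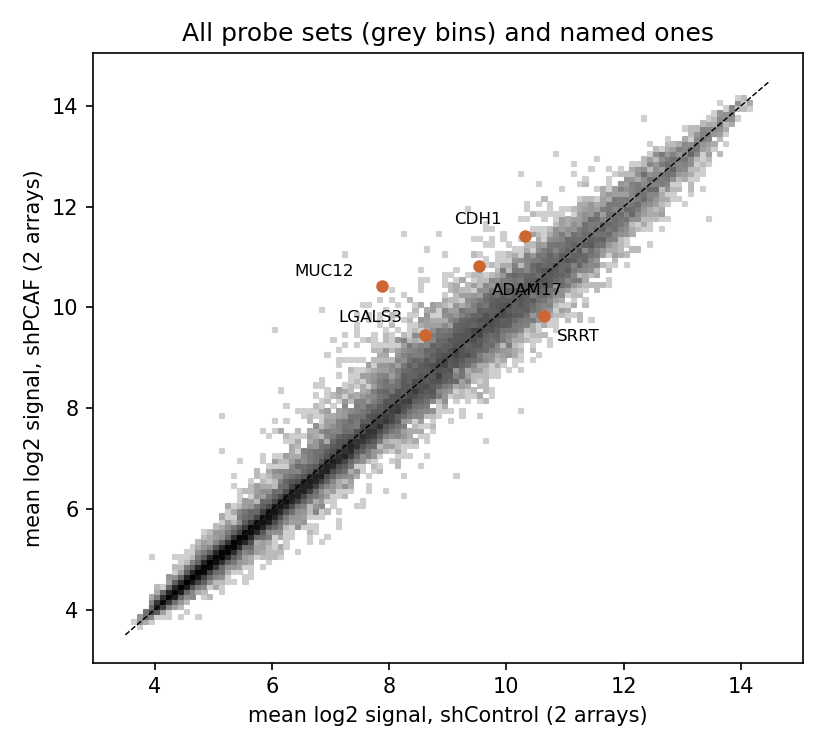
Mean log2 signal of the 2 shPCAF arrays against that of the 2 shControl arrays. Grey squares are bins of 0.1 that hold probe sets, darker with more of them, the dashed line marks equality, and orange points are the named probe sets. MUC12, at 7.87 and 10.42, lies farther from the line than ADAM17, LGALS3 and CDH1, and SRRT lies below it.

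Around MUC12 on chromosome 7, RefSeq lists MUC3A, MUC17, TRIM56 and other genes within 10 entries on either side, most of them without a named probe set here. A neighbour with a named probe set is not reported here, so the genes given do not describe the whole stretch. SRRT, which encodes the cap-binding complex partner ARS2, also had one and went the other way from MUC12. Its signals were 10.62 and 10.67 in shControl and 9.76 and 9.90 in shPCAF, a log2 difference of -0.81. Lower calls by limma made up 5.85% of all probe sets, and SRRT was among them. For SRRT the groups did not overlap either, as in the 36.0% of all probe sets whose shPCAF arrays were both lower. SRRT too came from the table selected on this contrast, so nothing is read from its call or its lack of overlap.

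The pattern of MUC12 over the 4 arrays was set beside those of 694 probe sets with a single symbol in the table, as the Euclidean distance between log2 signals after each probe set's own mean was removed. SPX, the gene of the neuropeptide spexin (C12orf39 in the table), was nearest, at a distance of 0.173 log2 units. SLC7A11, the cystine and glutamate exchanger, was the third, at 0.259. Their log2 differences were 2.70 and 2.37, on either side of the 2.55 of MUC12. With 4 arrays in 2 groups, this likeness reflects little more than the size of the difference.

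Of 8 markers of colorectal epithelium, CDH1 (E-cadherin) had a named probe set, with signals of 10.23 and 10.39 in shControl and 11.56 and 11.26 in shPCAF, a log2 difference of 1.10. None of the 5 goblet cell markers had one, so the cell type could not be checked against them. None of the 5 macrophage and 4 endothelial markers was named either. Of 7 fibroblast markers, ACTA2, a smooth muscle actin, was higher (log2 difference 0.86) and TAGLN, an actin-binding protein, was lower (-0.73), and of 5 lymphocyte markers CD22, a B cell surface receptor, was higher (1.54). Their part in the MUC12 result was not tested. KAT2B, the target of the shRNA, is not among the symbols of the table, so its level was not analysed here and the knockdown has no check in these values.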

How the data were processed

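The 4 single-colour Affymetrix arrays were grouped by their sample titles. The authors deposited log2 probe set signals; the submitters' processing notes name Affymetrix Expression Console and limma, with no version. For summarization, normalization and genome build, details were not given in the sources used here. The authors' deposited table gives a value headed fold change, treated as a score because it is proportional to the log2 difference, and an unadjusted p-value.

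Differences of group means were computed from the deposited log2 values without further normalization or filter. Limma 3.58.1 in R 4.3.3 (lmFit, eBayes) was fitted to all 33297 probe sets to give the background. It used Benjamini-Hochberg adjustment and a threshold of 0.05. The fit was also run on simulated arrays with planted differences, which checks the code and not the calls made here. Promoter motifs and distances were computed in Python 3.11.15. No 2 arrays were identical. Symbols were updated through RefSeq (GRCh38.p14).

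The named genes are the mucin probe set, members of fixed lists with a named probe set (up to 4 a list), neighbours up to 10 entries away, and the 3 nearest patterns. A gene that these rules take is not reported here. Members and lists were chosen with earlier results of these data known. Alternatives were 2 normalizations, a block, a dimness filter, another prior, another threshold and leaving out each array. The number of arrays limits the precision.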

Additional observations from a re-analysis of the deposited data

How the results depend on the processing

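The log2 difference of the MUC12 probe set stayed higher in shPCAF under every alternative run on it. It was 2.56 after quantile normalization and 2.61 with each array centred on its median, both within the pooled SD of 0.07 of the 2.55 reported. Leaving out each array in turn gave 2.49 to 2.62. With 2 arrays a group, such a shift cannot exceed the pooled SD, so nothing is read from its size. With the replicate number as a block (replicate block) the log2 difference was 2.55. That value was fixed in advance, since each group holds both replicate numbers. Under the block limma called 2454 probe sets higher and 2130 lower, beside 2346 and 1948 without it. Same-numbered arrays deviated together with a correlation of 0.254 over probe sets, which with 2 pairs does not settle whether the numbers pair the samples. The background counts were less stable. Leaving out each array in turn gave 0 to 1227 higher and 0 to 1142 lower calls. The counts of 0 came without either shControl array, where limma still gave 6848 and 6849 probe sets an unadjusted p below 0.05. At an adjusted p below 0.01 there were 213 higher and 75 lower calls. Centring on the median gave 3012 higher and 1419 lower. Some of these alternatives impose fewer arrays or a stricter threshold. The causes of the changed counts were not tested. With 2 arrays a group and no detection calls, neither the error of a single probe set nor its height above background is well known.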
